A study of Mus musculus with 3 samples.

Results

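The nuclear-encoded subunits of the respiratory chain were examined in regulatory T cells (Tregs), the Foxp3-dependent CD4 T cells that hold immune responses in check. Members were the protein-coding genes whose GENCODE M21 symbol starts with Ndufa, Ndufb, Ndufc, Ndufs, Ndufv, Sdha, Sdhb, Sdhc, Sdhd, Uqcr, Cox4 to Cox8 or Atp5, which gave 98 of 55536 annotated genes and of 22028 protein-coding genes. The cells were mouse primary Tregs labelled as inflammation-experienced and as derived from activated Tregs, from 1 donor of 12 weeks of age and 1 biosample. The sources used here name no genotype, treatment agent or untreated group. Polyadenylated RNA was sequenced in 3 libraries labelled as technical replicates 1 to 3 of biological replicate 1, and these make up 1 group. The comparisons are therefore between genes and between libraries, every ± is a standard deviation (SD) over these 3 libraries, and none of these values measures variation between mice.

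The respiratory chain passes electrons from NADH and succinate through complexes I and II to ubiquinone, then through complex III and cytochrome c to complex IV, which reduces oxygen. Complexes I, III and IV pump protons across the inner mitochondrial membrane, and complex V, the ATP synthase, lets the protons flow back to make ATP. Most subunits are encoded in the nucleus and imported, while a small set is encoded by mitochondrial DNA. Several complex IV subunits exist as a ubiquitous form and a form restricted to muscle, lung, testis or hypoxic cells. Regulatory T cells are known to rely on oxidative phosphorylation more than conventional effector T cells do.

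The libraries held 35592206, 31611422 and 37728241 expected counts over genes, the reads that the authors' model apportioned to each gene. Libraries 1 to 3 carried the defining Treg transcripts at 98.1, 98.4 and 96.5 TPM of Foxp3 and 256, 251 and 236 TPM of Il2ra. TPM is a length-corrected transcript level whose values share 1 total per library. Library 3 stood apart in 8 salivary gland genes, which were chosen by an earlier look at these data. Led by Bpifa2, they summed to 57407 TPM there, against 5.07 and 11.6 TPM in libraries 1 and 2. In the same order, 5 B cell markers summed to 55.6, 61.0 and 53.8 TPM and 6 myeloid markers to 2.27, 0.85 and 3.04 TPM. The 6 epithelial markers summed to 36.6, 27.4 and 45.5 TPM, mostly Epcam at 33.1, 25.9 and 37.4 TPM. Epcam was the only 1 of these 6 to reach 1 TPM in all 3 libraries, and no myeloid marker did. In bulk RNA, fewer cells of a type and less RNA per cell cannot be told apart. The sum of the 8 gland genes was 5.78% of all gene TPM in library 3. This takes TPM away from all other genes there, the members included.

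Most of the members were abundant. In all 3 libraries 90 of 98 members reached a TPM of at least 1, called detected here, against 47.6% of protein-coding genes. A mean of at least 100 TPM was reached by 69 members, against 8.35% of protein-coding genes. Together the members took 1.92%, 1.89% and 1.76% of gene TPM in libraries 1 to 3, and library 3 was the lowest. The median over all 98 was 156 ± 4.0 TPM, as the mean of the 3 library medians. The median over all protein-coding genes, taken over their mean TPM, was 1.04.

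**Figure D1:**
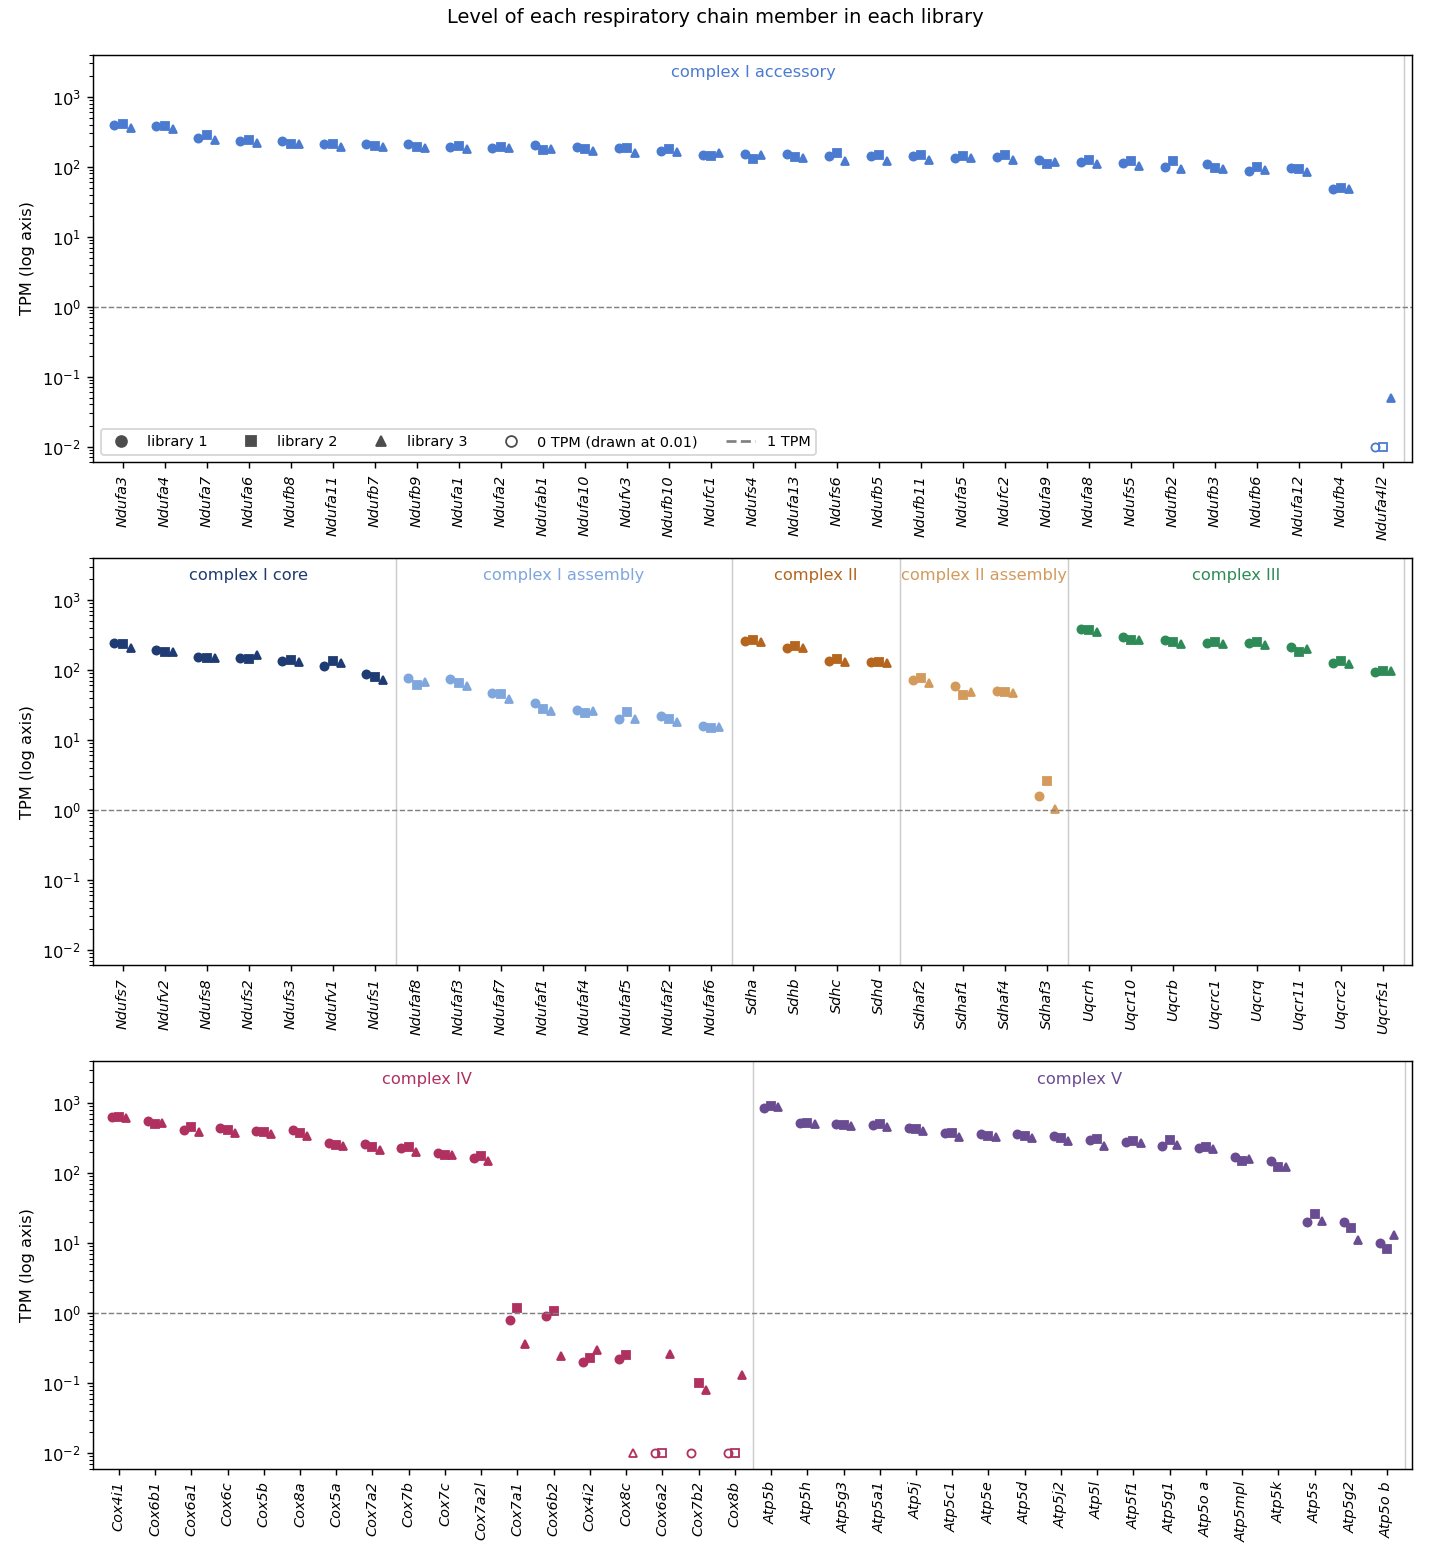
TPM of each of the 98 members (vertical log axis) in each library (circle, square and triangle for libraries 1, 2 and 3), by complex and in order of mean TPM. Open symbols stand for 0 TPM, Atp5o a and b are the 2 rows of that symbol, and the members below the dashed line at 1 TPM are Ndufa4l2 and 7 complex IV genes, with Cox7a1 and Cox6b2 above the line in library 2.

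Levels differed between complexes, in the order V, III, IV, II, I and then the assembly factors, when the medians over all members, detected or not, were compared. The 18 complex V members had a median of 305 ± 20.6 TPM, and the 8 complex III members 240.0 ± 8.4 TPM. Complex IV stood at 203 ± 12.8 TPM over 18 members, a median that counts 7 undetected forms. The 11 detected complex IV members had a median of 378.5 TPM by mean TPM, above the 300.3 TPM of complex V, whose 18 members were all detected. Over detected members alone, complex IV thus came before complex V. Complex II had 174 ± 8.2 TPM over 4 members. The 7 core and 31 accessory subunits of complex I had 147 ± 2.8 and 148 ± 2.3 TPM, so the core and accessory medians did not differ beyond their spread. Assembly factors, which help build a complex and do not stay in it, were lower, at 27.2 ± 2.4 TPM for 8 members of complex I and 49.3 ± 4.5 TPM for 4 of complex II.

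Complex I takes electrons from NADH. Among its core subunits, which carry the flavin and the iron-sulfur clusters, Ndufs7 was highest at 240.3, 237 and 203 TPM in libraries 1 to 3. Ndufs8 was at 151 ± 3.5 TPM and Ndufs3 at 134 ± 2.3 TPM. Ndufs1, which holds iron-sulfur clusters of the NADH-oxidising arm, was lowest at 86.5, 79.2 and 72.1 TPM. The 7 core genes thus lay within a 2.86-fold range, with no overlap between those at its ends. These are levels of whole gene rows. Of Ndufs7 TPM, 82.4 ± 4.7% went to transcripts not annotated as protein-coding, against 18.6 ± 1.8% for Ndufs1. The order by protein-coding transcripts alone was not computed. The NADH-binding subunit Ndufv1 was at 113, 134 and 126 TPM and its partner Ndufv2 at 190.2, 182 and 181 TPM. Ndufv1 was below Ndufv2 in every library, by 0.56 ± 0.16 on the log2(TPM + 1) scale.

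Of the 31 accessory members of complex I, 30 were detected, between 48.7 and 386 TPM. Ndufa3 was highest at 399, 405 and 354 TPM. Ndufa4, whose symbol places it here although its protein is now assigned to complex IV, followed at 379, 376 and 351 TPM. The third was Ndufa7 at 260.4, 284 and 245 TPM. Ndufa3 and Ndufa4 overlapped, and both lay above Ndufa7 in every library. Transcripts not annotated as protein-coding took 95.5 ± 0.6% of Ndufa3 TPM, 0.34 ± 0.29% of Ndufa4 TPM and 72.9 ± 2.0% of Ndufa7 TPM. The lowest detected members were Ndufb6 at 92.0 ± 5.1 TPM, Ndufa12 at 91.2 ± 5.9 TPM and Ndufb4 at 48.7 ± 1.0 TPM, and the last 2 of these share sequence with annotated pseudogenes, as described further on. Ndufa4l2, a paralog of Ndufa4 known as a target of the hypoxia-inducible factor HIF1, had 1 read in 3 libraries. Ndufaf8 and Ndufaf3 led the assembly factors at 68.0 ± 7.8 and 65.7 ± 7.6 TPM, ahead of Ndufaf7 at 43.4 ± 3.9 TPM. Ndufaf6, Ndufaf2 and Ndufaf5 were lowest at 15.4 ± 0.5, 19.8 ± 2.0 and 21.5 ± 2.9 TPM. Transcripts not annotated as protein-coding took 71.7 ± 1.1% of Ndufaf8 TPM, 37.0 ± 1.8% of Ndufaf3 TPM and 42.9 ± 3.3% of Ndufaf7 TPM.

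Complex II, succinate dehydrogenase, is the only complex of the chain with no subunit from mitochondrial DNA. Its flavoprotein Sdha was at 255, 269 and 251 TPM and its iron-sulfur subunit Sdhb at 208, 222 and 208 TPM. Sdha was above Sdhb by 0.28 ± 0.01 (log2), with 1 sign in all libraries and no overlap. The membrane anchors Sdhc, at 133, 145 and 130 TPM, and Sdhd, at 131, 128 and 127 TPM, overlapped, with a difference of 0.08 ± 0.09 (log2). Among the assembly factors, Sdhaf2, which helps attach the flavin to Sdha, was at 70.6 ± 6.3 TPM, Sdhaf1 at 50.2 ± 7.6 TPM and Sdhaf4 at 48.5 ± 2.0 TPM. Sdhaf3 was far lower, at 1.56, 2.55 and 1.03 TPM. Transcripts not annotated as protein-coding took 93.0 ± 0.6% of Sdhaf2 TPM, 0% of Sdhaf1 TPM and 1.25 ± 0.98% of Sdhaf4 TPM.

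Complex III passes electrons from ubiquinol to cytochrome c. Its hinge subunit Uqcrh was highest at 390.4, 366 and 351 TPM, above Uqcr10 at 275 ± 14.0 TPM and Uqcrb at 252 ± 18.0 TPM. The catalytic Rieske iron-sulfur protein Uqcrfs1 was lowest at 92.5, 97.5 and 96.6 TPM. The small subunit Uqcr11 was at 197 ± 15.8 TPM. Of Uqcrh TPM, 60.6 ± 2.2% went to transcripts not annotated as protein-coding, against 16.5 ± 3.7% for Uqcr10 and 2.71 ± 0.59% for Uqcrb. These ranks are of whole gene rows, and the order by protein-coding transcripts alone was not computed. Of the core proteins, Uqcrc1 was at 240.3, 247 and 232 TPM and Uqcrc2 at 125, 135 and 121 TPM. The groups did not overlap, and Uqcrc1 was above Uqcrc2 by 0.91 ± 0.04 (log2), or 1.89-fold in mean TPM.

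Complex IV, cytochrome c oxidase, showed the sharpest split. Its 11 detected members lay between 163 and 621 TPM, and the other 7 were below 1 TPM on average. Cox4i1, the ubiquitous form of the subunit that binds regulatory nucleotides, was highest at 629, 626 and 607 TPM. Cox6b1, at the face of the enzyme toward the intermembrane space, was at 552, 508 and 515 TPM. Cox6a1 was at 417, 460.3 and 382 TPM, and Cox8a at 420.0, 379 and 336 TPM. Cox7b was at 232, 239 and 199 TPM. Cox7a2l, which takes part in joining complexes III and IV into supercomplexes, was the lowest detected member at 165, 178 and 147 TPM. Of the subunits on the matrix side, Cox5a was at 270.3, 253 and 244 TPM and Cox5b at 403, 382 and 366 TPM. Cox5a was below Cox5b by 0.58 ± 0.01 (log2) by their whole gene rows. Of Cox5b TPM, 75.7 ± 0.7% went to transcripts not annotated as protein-coding, against 0.67 ± 0.21% for Cox5a. For Cox4i1 that share was 45.6 ± 1.4%, against 1.25 ± 0.47% for Cox6b1.

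Complex V held the highest member. Atp5b, the catalytic beta subunit of the F1 head, was at 857, 912 and 871 TPM, which ranks 108 among 22028 protein-coding genes by mean TPM. Its partner Atp5a1, the alpha subunit, was at 482, 505 and 463 TPM, and was lower by 0.86 ± 0.04 (log2) although the F1 head holds both in equal number. Atp5h, of the peripheral stalk, was at 524, 525 and 497 TPM. Atp5g3, a gene for the c subunit of the rotor, was at 501, 484 and 471 TPM. Atp5h was above both Atp5g3 and Atp5a1 in every library, although the ranges over libraries overlapped, and the order of Atp5g3 and Atp5a1 differed between libraries. The lowest were Atp5s at 22.2 ± 3.1 TPM, Atp5g2 at 15.8 ± 4.3 TPM and the second row of Atp5o (ENSMUSG00000116933.1) at 10.4 ± 2.5 TPM. The annotated span of that row overlaps both Donson and the main row of Atp5o. The main row (ENSMUSG00000022956.11), for a peripheral stalk subunit, was at 229 ± 10.7 TPM. Transcripts not annotated as protein-coding took 34.6 ± 2.2% of Atp5h TPM, 6.47 ± 0.84% of Atp5g3 TPM and 4.09 ± 0.73% of Atp5a1 TPM.

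Across 18 pairs of genes, 12 of isoforms and 6 of partner subunits, 17 were apart. The share apart among gene pairs in general was not computed, so this count only describes the pairs chosen. Apart means 1 sign in all 3 libraries, no overlap over libraries and no overlap of the bounds the authors gave for each TPM, whose level is not stated. The exception was Sdhc against Sdhd, a call that depends on the unit and table: the pair was apart in FPKM (0.08 log2), in CPM without length correction (-0.37) and in M4 counts per kilobase (0.37), so its direction turned too. Over 3 libraries an exact permutation test that flips signs, two-sided, cannot go below p = 0.25, and every pair had p = 0.25, also after Benjamini-Hochberg adjustment over the 18 pairs. Ndufv1 against Ndufv2 and Cox5a against Cox5b turned direction in the older M4 gene counts per kilobase, to 0.12 and 0.87 (log2), and so their order depends on the table. In CPM, Ndufv1 against Ndufv2 was not apart (-0.13) and Cox5a against Cox5b turned direction (0.16).

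Every ubiquitous isoform was high where its restricted form was near 0. Cox4i2, the form known from lung and from hypoxic cells, had 11 reads in all and was at 0.20, 0.23 and 0.30 TPM. Cox6a2 and Cox8b, the forms of heart and skeletal muscle, had 4 reads and 1 read, all of them in library 3. Cox7a1, another muscle form, had 17 reads and was at 0.79, 1.20 and 0.36 TPM. The testis forms Cox6b2, Cox7b2 and Cox8c had 17, 2 and 4 reads. None of these 7 forms was detected, and each lay below its ubiquitous partner in all 3 libraries. In mean TPM, Cox4i1 was 2550.4-fold above Cox4i2 (exact Poisson 95% interval 1425 to 5109), and Cox7a2 was 300.4-fold above Cox7a1 (188 to 516). Cox6b1 was 710.0-fold above Cox6b2 (443 to 1219). Cox6a1 was 4844-fold above Cox6a2 (1892 to 17780) and Cox8a 2416-fold above Cox8c (944 to 8867). Cox6a2 was at 0 in libraries 1 and 2, so its ratio rests on library 3, which also held the gland transcripts. These intervals cover the counting error of the restricted form only, and reads are treated as separate molecules. By contrast, Cox7a2 at 259, 236 and 211 TPM and Cox7a2l differed by 0.52 ± 0.12 (log2), or 1.44-fold, and their order turned without length correction (-0.66 in CPM, counts scaled to the library total). Of Cox7a2 TPM, 88.0 ± 0.6% went to transcripts not annotated as protein-coding, against 0% for Cox7a1 and 0.03 ± 0.06% for Cox7a2l. Both folds of Cox7a2 are of whole gene rows, and folds over protein-coding transcripts alone were not computed.

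**Figure D2:**
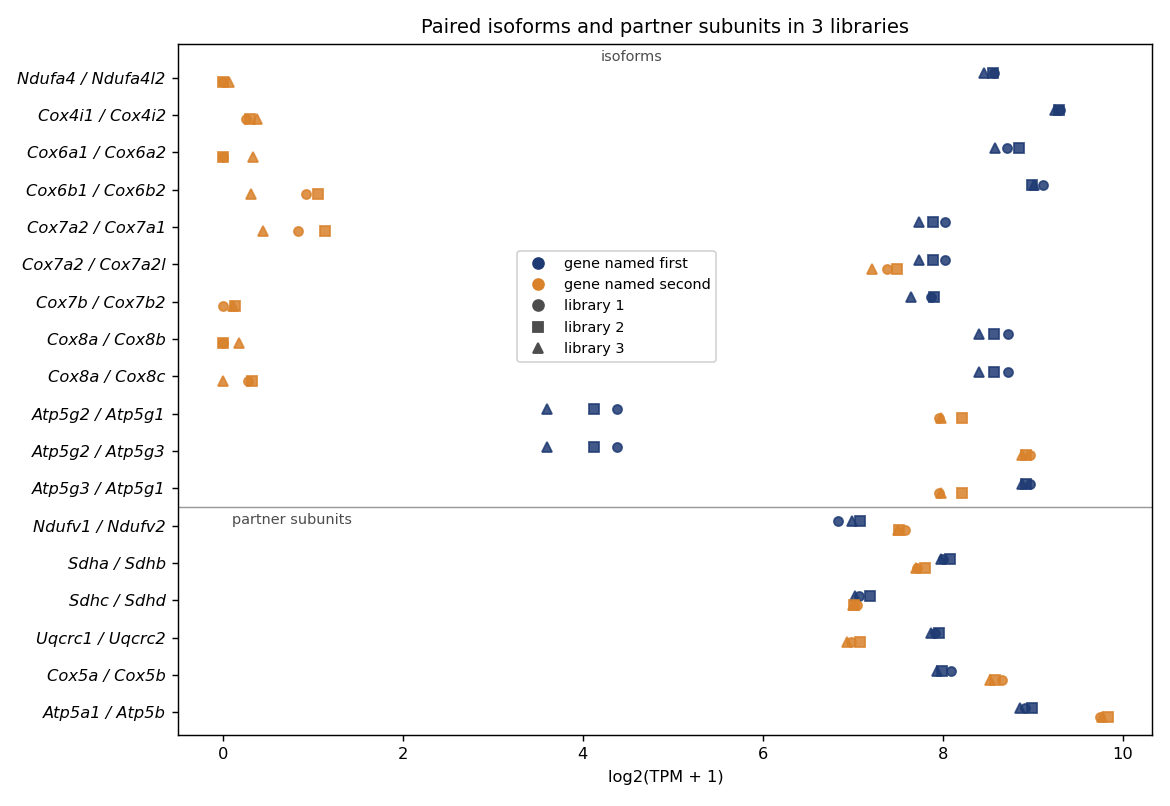
Level as log2(TPM + 1) on the horizontal axis for both genes of 18 pairs in libraries 1 to 3 (circle, square, triangle), the gene named first in blue and the second in orange. In 8 of the isoform rows the second gene sits below 1.2 while the first lies above 7.6, and the partner subunits differ by less than 1.

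Markers of muscle, fat and male germ cells were low beside these forms, and no lung markers were read. The 8 striated muscle markers summed to 3.52, 5.19 and 3.33 TPM, of which Tnnt3 alone was detected at 1.54, 2.72 and 1.67 TPM, the 5 fat markers to 0.87, 1.53 and 1.31 TPM, and the 5 male germ cell markers to 1.81, 0.86 and 2.14 TPM, with Tnp1 and Odf1 at 0. Between the isoforms themselves, the encoded proteins had 62.2% identical residues for Ndufa4 and Ndufa4l2, 60% for Cox6a1 and Cox6a2, 56.2% for Cox7a2 and Cox7a1, and 50% for Cox4i1 and Cox4i2. Identity was lower for Cox8a, at 42.6% with Cox8b and 26.5% with Cox8c. These identities come from global alignment of the M21 coding sequences.

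Promoters are shown so that the letters of expressed and undetected isoforms can be compared in 2 complex IV pairs, Cox7a2 with Cox7a1 and Cox8a with Cox8b, and Cox6a1 is shown for its motif. These genes were chosen after their values were seen. Each line holds the 100 bases before the annotated start, 5′ to 3′ on the gene's strand, from RefSeq on GRCm38.p6, and capitals mark an ETS motif, here on the opposite strand.
Cox6a1 (expressed; chr5:115348959-115349058, minus strand): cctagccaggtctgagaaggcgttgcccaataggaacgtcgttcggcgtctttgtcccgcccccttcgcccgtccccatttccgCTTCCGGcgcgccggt
Cox7a2 (expressed; chr9:79759854-79759953, minus strand): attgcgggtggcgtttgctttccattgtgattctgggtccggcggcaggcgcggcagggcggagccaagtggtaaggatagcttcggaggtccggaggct
Cox7a1 (under 1 TPM on average; chr7:30184071-30184170, plus strand): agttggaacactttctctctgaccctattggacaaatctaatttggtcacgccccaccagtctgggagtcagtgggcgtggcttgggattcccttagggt
Cox8a (expressed; chr19:7217617-7217716, minus strand): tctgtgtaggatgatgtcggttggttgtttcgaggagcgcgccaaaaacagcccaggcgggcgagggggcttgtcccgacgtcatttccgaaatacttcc
Cox8b (1 read; chr7:140900447-140900546, minus strand): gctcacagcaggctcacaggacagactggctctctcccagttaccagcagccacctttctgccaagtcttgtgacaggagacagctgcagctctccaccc

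The 100 bases of Cox6a1, Cox7a2 and Cox8a held 13, 9 and 9 CG dinucleotides, those of Cox7a1 2 and those of Cox8b 0. This contrast did not extend to all pairs: over the windows of 300 bases described next, Cox6b1 had 17 and the undetected Cox6b2 10, but Cox7b had 5 and the undetected Cox7b2 10. Over windows of 300 bases, from 250 before to 50 after the start, 76 detected members with a window had a median of 20 CG dinucleotides, 4 undetected members 8.5, and the 17491 protein-coding genes with a promoter window had 15. The table had a window for 80 of the 98 members. The NRF1 motif GCGCATGCG was in a window of 10 of the 80 (12.5%), against 2.61% of all genes. The ETS motif CCGGAAG was in 21 (26.2%), against 12.9%, and the YY1 motif AAGATGGCG in 8 (10%), against 2.14%. Motifs were read on both strands, a window with several was counted under each, and 4 members had both the NRF1 and the ETS motif. At least 1 of the 3 was found for 33 members (41.2%), against 16.6% of all genes, and for 0 of the 4 undetected members. Of the genes printed above, Cox6a1 had the NRF1 and the ETS motif in its window. Cox8a had the ETS motif in its window, but not wholly within the 100 bases shown. Cox7a2, Cox7a1 and Cox8b had none. These are matches of letters in a window and no measure of binding.

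The c subunit of the ATP synthase rotor is made from 3 genes, and their mature products are known to be identical. Atp5g1 was at 247, 294 and 250.2 TPM, Atp5g3 at 501, 484 and 471 TPM, and Atp5g2 at 19.7, 16.4 and 11.2 TPM. Taken by their own rows, Atp5g2 lay 4.01 ± 0.40 below Atp5g1 and 4.89 ± 0.35 below Atp5g3 (log2). The coding sequences of the last 78 residues, which are the same protein in all 3 genes, are shown because they tell how far reads can separate the genes. Each is printed 5′ to 3′ on the minus strand, joined over introns within the mm10 interval given, and capitals mark the 63 of 234 bases at which the genes differ.
Atp5g1 (chr11:96073107-96073644): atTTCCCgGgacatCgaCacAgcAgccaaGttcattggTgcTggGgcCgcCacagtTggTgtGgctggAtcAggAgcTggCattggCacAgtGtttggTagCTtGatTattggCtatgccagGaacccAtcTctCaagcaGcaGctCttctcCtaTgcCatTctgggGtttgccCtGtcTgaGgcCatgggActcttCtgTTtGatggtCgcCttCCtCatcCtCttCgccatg
Atp5g2 (chr15:102663017-102665175): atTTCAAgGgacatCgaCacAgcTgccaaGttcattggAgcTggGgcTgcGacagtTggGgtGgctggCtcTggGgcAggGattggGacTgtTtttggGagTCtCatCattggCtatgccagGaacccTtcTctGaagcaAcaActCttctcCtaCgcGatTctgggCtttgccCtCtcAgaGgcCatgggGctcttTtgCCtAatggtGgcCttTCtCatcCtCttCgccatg
Atp5g3 (chr2:73908596-73909305): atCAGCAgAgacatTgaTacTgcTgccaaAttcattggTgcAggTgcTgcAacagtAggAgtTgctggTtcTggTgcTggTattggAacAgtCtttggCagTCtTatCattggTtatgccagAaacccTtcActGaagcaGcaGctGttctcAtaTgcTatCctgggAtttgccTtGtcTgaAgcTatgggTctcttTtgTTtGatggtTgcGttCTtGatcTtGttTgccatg

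Atp5g1 and Atp5g2 had 84.6% identical bases here, Atp5g1 and Atp5g3 78.6%, and Atp5g2 and Atp5g3 77.4%. The longest identical run between any of them was 20 bases. In the M21 tables the length of a gene exceeds its effective length by 49 bases, so a stretch of 50 bases was used as the unit of comparison, and none of that length is shared among the 3 coding stretches. By contrast, 87.4% of the 50-base stretches of the Atp5g2 coding transcript occur also in Gm10175, a transcribed processed pseudogene. The deposited row of Gm10175 held 292, 295 and 284 TPM, against a mean of 15.8 TPM for Atp5g2. With pseudogene rows added, Atp5g2 came to 318, 311 and 296 TPM and Atp5g1 to 272, 323 and 291 TPM, which overlap, and their difference was 0.07 ± 0.14 (log2). Atp5g2 then stayed below Atp5g3 by 0.65 ± 0.02. The order of Atp5g2 and Atp5g1 thus depended on whether pseudogene rows were added, and which gene those reads came from was not tested.

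Shared sequence touched many other members. Of the 90 detected members, 40 shared no 50-base stretch of their coding transcript with any other annotated gene, 35 shared some with at least 1 pseudogene, and 8 shared at least 50% of their stretches with other genes. Cox7c, a small complex IV subunit, was at 196, 179 and 179 TPM, while its pseudogene rows Gm12338 and Gm10012 held 310.1 ± 23.0 and 67.3 ± 28.0 TPM. Atp5l, the g subunit of complex V, was at 302, 307 and 245 TPM beside 361 ± 24 TPM in Gm10221. Ndufb4 was at 48.7, 49.7 and 47.8 TPM beside 152 ± 7.8 TPM in Ndufb4c, annotated as a processed pseudogene. Pseudogene rows were thus above the member's own row in TPM for Cox7c (1 of its 3), Atp5l and Ndufb4. In mean expected counts, all pseudogene rows of a member together held 1443 against 1562 for Cox7c itself. The same counts were 2098 against 2095 for Atp5l and 1127 against 494 for Ndufb4. With such rows added, Cox7c rose from 185 ± 9.5 to 563 ± 42.5 TPM, Atp5l from 284 ± 34.4 to 654 ± 58.0 TPM, Ndufb4 from 48.7 ± 1.0 to 201 ± 8.7 TPM and Ndufa12 from 91.2 ± 5.9 to 168 ± 7.8 TPM. Sums over rows of different length are a description only, since TPM counts transcripts and each row is divided by its own length. Ndufb1-ps, which carries a member prefix and is annotated as a noncoding RNA, was at 120.0 ± 14.3 TPM and is no member.

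**Figure D3:**
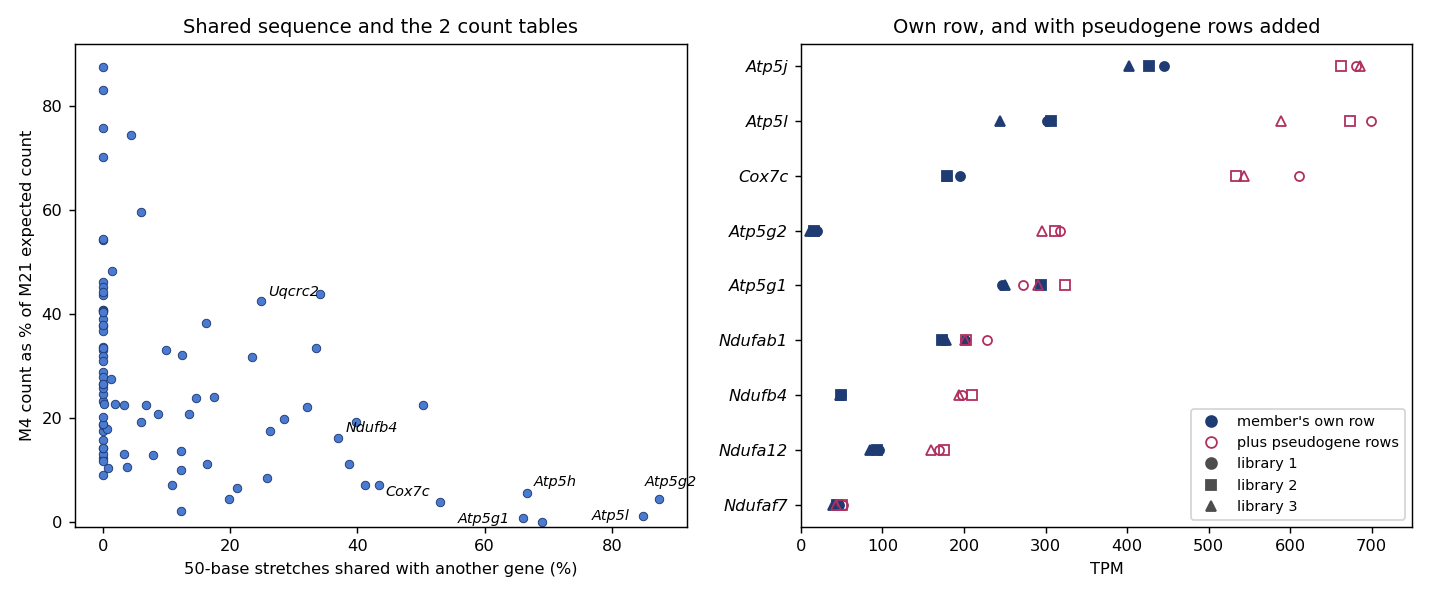
Left, for each detected member with a row in both tables, the percent of 50-base stretches shared with other genes (horizontal) and the M4 count as a percent of the M21 expected count (vertical); right, TPM of 9 members in libraries 1 to 3 (circle, square, triangle) from their own row (filled) and with pseudogene rows that share stretches added (open). Members sharing at least 50% lie at or below 22.5% on the left, where members sharing under 1% reach down to 8.93%, and Atp5g2 moves from 15.8 to 308 TPM on the right.

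The deposited M4 tables, which hold whole-number counts against an older annotation, gave fewer reads to such genes in the median. The M4 count was a median of 31.5% of the M21 expected count over the 44 detected members that share under 1% of stretches, and 3.86% over those sharing at least 50%. The median over all 13674 genes tested with an M4 row was 43.9%. Atp5g1 kept 0.77% of its count, a mean of 25 against 3230.2, and 66.0% of its stretches occur in other genes. Atp5l kept 0.99% and Cox7c 3.86%. Sdhaf1 had 0 M4 counts, and 69.0% of its stretches occur also in E130208F15Rik, a gene annotated at the same place on the opposite strand, which was at 0 TPM. How the M4 tables treat reads that fit several genes is not stated in the sources used here.

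The authors' model also split each gene's TPM among its annotated transcripts, and for 69 of the 90 detected members the leading transcript was protein-coding. For 21 it was not: 9 were led by a processed transcript, 8 by a retained intron and 4 by a transcript marked for nonsense-mediated decay. Over all detected protein-coding genes, 12.8% were led by a transcript that is not protein-coding. The leading transcript took a median of 82.3% of TPM over the 90 members, more than 90% in 35 and less than 50% in 14, and the same transcript led in all libraries for 83. Ndufa3, the highest accessory subunit of complex I, had 90.5%, 92.6% and 91.6% of its TPM in Ndufa3-204, of the decay class. Ndufb4 had 89.9 ± 0.4% in the retained intron Ndufb4-202, and Cox7a2 had 87.7 ± 0.6% in the processed transcript Cox7a2-203. These shares were alike in the 3 libraries, with the lowest at 87.0% for Cox7a2 in library 3.

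Atp5l (78.7 ± 4.1%), Cox7b (77.2 ± 1.4%), Atp5j (76.6 ± 1.5%), Ndufaf4 (72.5 ± 2.1%), Ndufaf8 (71.7 ± 1.1%) and Ndufs7 (68.7 ± 4.8%) were likewise led by transcripts that are not protein-coding. So were Cox5b (67.7 ± 0.8%), Atp5f1 (63.4 ± 1.4%), Ndufc1 (61.8 ± 0.9%), Ndufa7 (59.6 ± 0.8%), Uqcrh (59.4 ± 2.3%) and Sdhaf2 (54.6 ± 4.0%). Below 50% stood Ndufa5 (49.4 ± 4.8%), Cox7c (46.6 ± 4.0%), Ndufa11 (45.7 ± 2.2%), Ndufs4 (45.4 ± 3.6%) and Ndufab1 (40 ± 1.8%). The smallest leading shares were 24.7 ± 1.9% in Ndufa10, 26.6 ± 7.3% in Ndufaf7, 32.4 ± 6.9% in Ndufv1, 40 ± 1.8% in Ndufab1 and 42.1 ± 3.5% in Ndufa6. In Ndufa10, 98.1 ± 0.2% of TPM went to transcripts that are not protein-coding. These shares are model estimates for transcripts that overlap each other, and shares of TPM differ from shares of reads where the transcripts differ in length. Ranks and pair differences given above are of whole gene rows and were not recomputed over protein-coding transcripts alone.

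**Figure D4:**
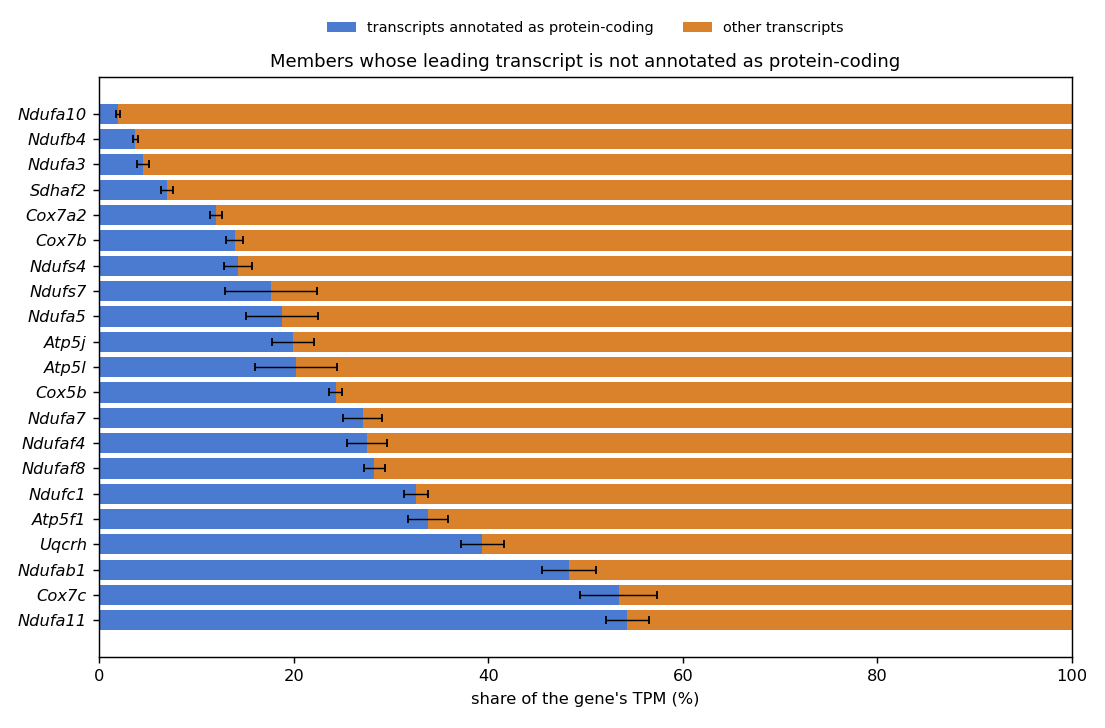
Percent of the gene's TPM (horizontal) in transcripts annotated as protein-coding (blue) and in all others (orange) for the 21 detected members whose leading transcript is not protein-coding, as means over 3 libraries with the SD as bars. Ndufa10, Ndufb4 and Ndufa3 sit at the top with under 5% in protein-coding transcripts, and Ndufa11 and Cox7c at the bottom with over 50%.

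Between libraries the members differed by small ratios. A chi-square test against Poisson counting noise, after TMM scaling (trimmed mean of M values, edgeR) and with Benjamini-Hochberg adjustment over all genes at 0.05, called 64 of the 90 members tested (71.1%), against 77.0% of all 18253 genes tested. In the count range of 1000 to 10000, 51 of 72 members were called (70.8%), against 83.4% of 6135 genes. The call compares these libraries only, treats reads as separate molecules, and at this depth marks small differences. In the M4 counts, whose median for 88 members was 501 against 2486 in M21, 5 members were called (5.68%), against 51.9% of genes: Sdha, Atp5b, Atp5a1, Atp5c1 and Ndufaf1, all of them called in M21 too. At M4 counts of 1000 to 10000, 4 of 18 members were called (22.2%), against 51.4% of 3330 genes. In M21, 37 of 90 members (41.1%) were called without library 1, against 57.8% of genes, 31 (34.4%) without library 2, against 48.8%, and 46 (51.1%) without library 3, against 60.4%.

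The highest library exceeded the lowest by at least 1.5-fold for 3 of 90 members (3.33%), against 38.3% of all genes tested. In the count range of 1000 to 10000 this held for 0 of 72 members, against 3.44% of genes. The coefficient of variation (CV, the SD as a percent of the mean) of TMM-scaled counts had a median of 4.12% over members and 16.6% over all genes tested. Within the count range the medians were 4.07% and 7.24%, where counting noise alone would give 1.94% and 2.01%.

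The 5 members with the largest ratio at a mean count of at least 50 were Sdhaf3, the second Atp5o row, Atp5g2, Sdhaf1 and Ndufaf5. Sdhaf3 differed 2.79-fold between library 2 and library 3 (chi-square adjusted p = 3.09e-16), from 419 reads in all. The second Atp5o row (1.72-fold, adjusted p = 0.00033) and Atp5g2 (1.67-fold, adjusted p = 1.11e-06) were highest in libraries 3 and 1. Sdhaf1 differed 1.32-fold (adjusted p = 5.46e-21) and Ndufaf5 1.27-fold (adjusted p = 0.000926). Of these 5, the second Atp5o row, Atp5g2 and Sdhaf1 share at least 69.0% of their stretches with other genes. Sdhaf3 and Ndufaf5 share 0%. Among the 90 detected members, 8 share at least 50%. Whether sharing bears on the ratios was not tested. The smallest ratios were those of Uqcrq (1.01), Ndufa4 (1.02) and Cox5b (1.02), which passed no test (adjusted p = 0.9, 0.768 and 0.807). Atp5b, with 89508 reads, was called at a ratio of 1.06 (adjusted p = 1.33e-11).

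**Figure D5:**
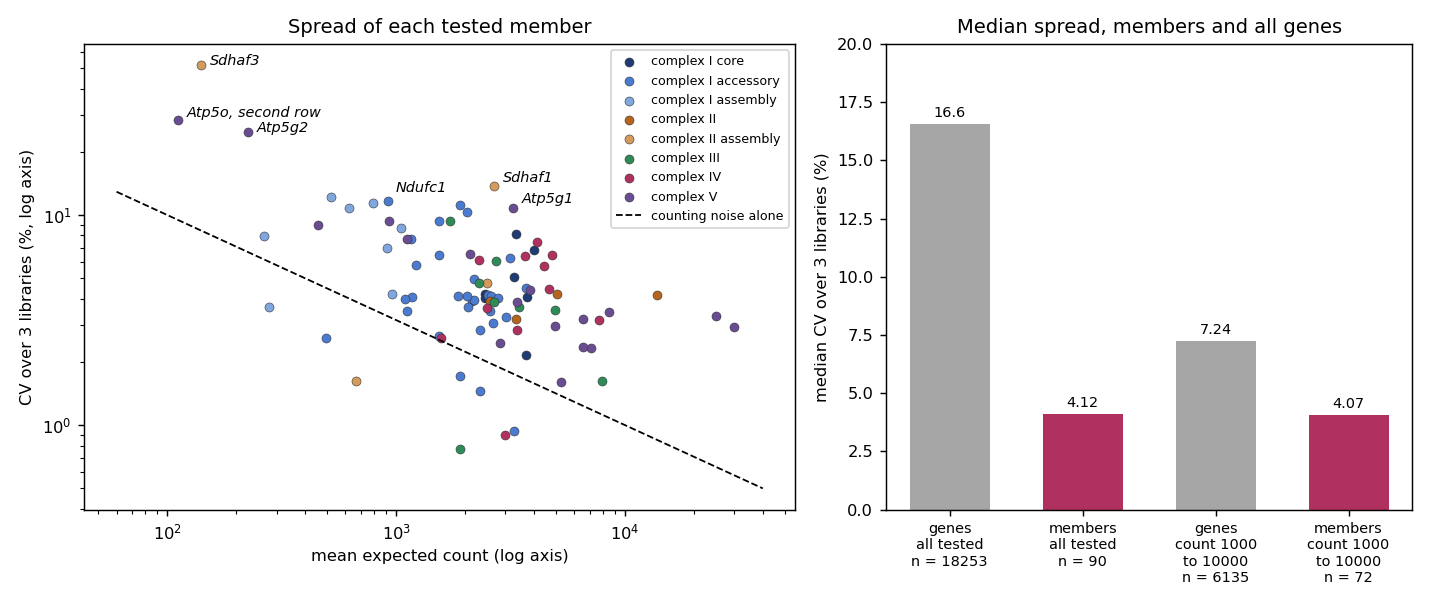
Left, mean expected count (log axis) and CV of TMM-scaled counts over 3 libraries (log axis) for the 90 tested members, coloured by complex, with the dashed line at counting noise alone; right, the median CV of members and of all genes. Sdhaf3, the second Atp5o row and Atp5g2 stand above the rest, and the median CV is 4.12% for members against 16.6% for all genes tested.

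After TMM scaling the highest value fell in library 1 for 31 members, library 2 for 37 and library 3 for 22, against 33.7%, 35.8% and 30.5% of all genes tested. The median log2 ratio of members was 0.00 for library 1 over 2, 0.01 for 1 over 3 and 0.00 for 2 over 3, beside 0.02, 0.00 and -0.01 over all genes tested. By complex, accessory subunits of complex I were highest in library 2 for 18 of 30, complex I assembly factors in library 1 for 5 of 8, and core subunits in library 3 for 4 of 7. In the M4 counts 60 of 88 members were highest in library 2, against 38.1% of genes. Scaled by total counts, 47 were highest in library 1 and 8 in library 3, against 39.4% and 23.3% of genes, with the gland transcripts inside the total of library 3.

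Other genes of the pathway were read from lists, with values named for the 2 highest and 2 lowest of each. The 13 mitochondrially encoded subunits, partners of the members in complexes I, III, IV and V, were all detected, from 223 ± 30.2 TPM for mt-Nd3 and 224 ± 35.2 TPM for mt-Nd4l to 3631 ± 332 TPM for mt-Atp6 and 5462 ± 584 TPM for mt-Co3. Their sum was 20225, 22620 and 24494 TPM in libraries 1 to 3, and 11 of 13 were highest in library 3 while all 13 were called by the chi-square test (background 77.0%). The summed TPM of the 98 nuclear members was 19027, 18799 and 17508, and lowest in library 3. There the 8 chosen gland genes took 5.78% of gene TPM. After TMM scaling the median log2 ratio of members was 0.01 for library 1 over 3 and 0.00 for 2 over 3. RNA of mitochondrial origin is not cleanly sampled by polyadenylate selection, and the levels of the 2 groups are given side by side only.

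Of 10 electron carriers and partners 9 were detected, and 6 of 9 tested were called between libraries, where the share over all genes tested was 77.0%. Cyc1, the cytochrome c1 of complex III, was at 202 ± 8.1 TPM and Etfb at 116 ± 8.8 TPM. Coq7, of ubiquinone synthesis, was at 7.56 ± 0.34 TPM and the testis cytochrome c Cyct at 0.00, 0.68 and 0.14 TPM. All 35 assembly factors without a member prefix reached detection with a median of 34.8 TPM, and 27 of 35 were called, near the 77.0% of all genes tested. The copper chaperone Cox17 (149.8 ± 17.7 TPM) and Cox20 (162 ± 5.6 TPM) were highest, and Lyrm7 (2.71 ± 0.99 TPM) and Pet117 (3.27 ± 1.28 TPM) lowest. Their median lay between those of the complex I and the complex II assembly members.

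All 14 tricarboxylic acid cycle genes were detected and 10 were called (all genes tested, 77.0%), with Mdh2 at 385 ± 15.6 and Idh3g at 173 ± 9.6 TPM at the top and Idh2 at 43.7 ± 1.7 and Suclg2 at 33.9 ± 3.6 TPM at the bottom. Of 7 carriers and channels, the adenine nucleotide carrier Slc25a5 led at 484 ± 21.8 TPM, followed by the phosphate carrier Slc25a3 at 299.8 ± 29.1 TPM. Vdac1 was at 69.1 ± 1.3 TPM, and the germ cell carrier Slc25a31 had 0 reads in all 3 libraries. Among 15 regulators 14 were detected, and 13 of 15 tested were called (all genes tested, 77.0%). Higd2a, which takes part in supercomplex assembly, was at 149 ± 9.5 TPM and Myc at 131 ± 15.4 TPM. The coactivators Ppargc1b and Ppargc1a were lowest, at 8.57 ± 0.72 TPM and at 0.65, 0.00 and 0.20 TPM. Ppargc1a was thus near 0, beside a median of 156 TPM for the chain genes, and a link between these levels was not tested.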

How the data were processed

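Polyadenylated RNA of 1 biosample was measured in 3 libraries. The deposited M21 gene tables hold expected counts, TPM, posterior mean TPM with bounds of unstated level (a range of the abundance signal), and FPKM, per the file headers, on mm10. The deposited transcript tables give each transcript's percent of the gene's TPM. The M4 tables, as deposited, give whole-number counts. Which aligner and counter were run is not given in the sources used here.

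Symbols, biotypes and coordinates came from the GENCODE M21 annotation. Expected counts were rounded and scaled by TMM (edgeR 4.0.16, R 4.3.3), and rows for transfer RNAs and spike-ins (0.170%, 0.170% and 0.218% of expected counts) stayed out. The chi-square test took genes whose mean count reached 10 and was tested on simulated data. With 1 group no quasi-likelihood contrast exists. Pairs were compared with a pseudocount of 1. Stretches of 50 bases were read from 1 coding transcript a member, the APPRIS principal one where annotated, and sought in all M21 transcripts on both strands, and proteins were aligned with Biopython 1.88. Python 3.11.15 with scipy 1.17.1, pandas 2.3.3 and numpy 2.4.6 did the rest.

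Named genes were the pair members, the 3 highest and 3 lowest of each class, the members with the 5 largest and 3 smallest library ratios at a mean count of at least 50, the 5 smallest leading shares and all leading transcripts that are not protein-coding, and 2 genes at each end of the other lists. Those beyond the rule, such as pseudogenes and members touched by them, were chosen after their values were seen. The members and lists were chosen with earlier results of these data known. Alternatives tried were other detection thresholds, TPM estimates, FPKM, pseudocounts, scalings (DESeq2 1.42.0 size factors, totals), count minimums, M4 counts and leaving out each library. The addition of pseudogene rows was chosen after seeing the data.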

Additional observations from a re-analysis of the deposited data

How the results depend on the processing

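Between 89 and 92 members were detected under the other thresholds and estimates, and 16 to 18 pairs were apart in the alternatives run. Class medians moved with the unit. In FPKM they were 91.6 for complex I core, 92.4 for accessory, 17.0 for complex I assembly, 109 for complex II, 30.7 for complex II assembly, 149 for III, 127 for IV and 189.7 for V, in the same order. In posterior mean TPM they were 139.9 for complex I core, 139 for accessory, 163 for II, 225 for III and 190.4 for IV. Rescaled without the gland list, complex I core had 149.98 and accessory 151 TPM. With pseudogene rows added, accessory had 167, IV 229 and V 330.3 TPM.

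Reversed pairs were Cox7a2 minus Cox7a2l (-0.66 in CPM), Ndufv1 minus Ndufv2 (0.12 in M4), Cox5a minus Cox5b (0.16 in CPM, 0.87 in M4) and Atp5g2 minus Atp5g1 (0.066 with pseudogene rows, no longer apart). Ndufv1 minus Ndufv2 was not apart in CPM (-0.13). Sdhc minus Sdhd, not apart in TPM (0.08), became apart in CPM (-0.37, with the sign turned), M4 (0.37) and FPKM (0.08). The cause was not tested, except that CPM leaves out length by construction.

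Called by the M4 counts were 6238 genes (51.9%) and 5 members (5.68%). Leaving out each library in turn gave 9218 to 10994 genes (48.8% to 60.4%) and 31 to 46 members (34.4% to 51.1%), with fewer libraries tested. The median CV of members was 5.32% with total scaling. Median log2 ratios for library 1 over 2 were -0.0072 (DESeq2), 0.022 (totals) and -0.046 (M4), for 1 over 3 0.084 (totals) and 0.027 (M4), and for 2 over 3 0.0082, 0.050 and 0.074. Members highest in library 1 numbered 47 by totals and 18 in M4, in library 2 60 in M4, and in library 3 8 by totals and 10 in M4. The median leading share ran from 81.3% to 83.2% without each library in turn. Genes with few reads and genes that share sequence have the least certain levels.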
